A study of Mus musculus with 12 samples.

Results

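The genes described here are 45 DNA replication genes, taken as the rows of the deposited count table whose Ensembl identifier belongs to a list of symbols, out of 43432 genes in the table. All 45 were found, and 44 had enough counts to be tested. The list holds the origin recognition and licensing factors, the MCM helicase and its activators, the replicative DNA polymerases and primase, the sliding clamp and its loader, replication protein A, the enzymes that finish Okazaki fragments, and 4 enzymes of deoxynucleotide synthesis. The study sequenced messenger RNA of 12 tumours grown from CR705 cells, which are mouse pancreatic cancer cells. In 6 of them the cells were knockouts of the aryl hydrocarbon receptor (AHRKO), and in 6 they were wild type (WT). The receptor is a transcription factor that ligands activate. The labels name no host strain, age or compound for any sample and do not say whether the AHRKO cells are 1 clone, and the CR705 cells themselves are common to both groups. The labels do not say whether the 6 samples of a group are 6 animals. Every p below therefore measures the spread between these samples, which may be technical.

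Every chromosome must be copied once, and no more than once, in each cell cycle. In G1 the origin recognition complex, with Cdc6 and Cdt1, loads the ring-shaped MCM helicase onto origins. In S phase Cdc45 and the GINS complex join the rings and turn them into an active helicase. DNA polymerase alpha and primase then start the new strands, and polymerases delta and epsilon extend them, held to the template by the PCNA ring that replication factor C loads. Many of these genes are transcribed under the control of E2F factors as cells enter S phase, and the group is a common gauge of how much a tumour sample is cycling.

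AHRKO libraries held 14772343 to 19944273 counts and WT libraries 19293174 to 35881469, and 15449 genes of the table were tested. Values are given as CPM, counts relative to the scaled library totals. Ahr itself was at 62.5, 104 and 143 CPM in AHRKO (lowest, median and highest of 6 libraries), against 101, 111 and 125 in WT. A transcript can remain when the protein is lost, so this level does not check the genotype. The summed level of 7 ductal epithelium and tumour markers was 681 CPM in AHRKO replicate 1 and 2841 to 4615 CPM in AHRKO replicates 2 to 6, against 3397 to 4833 CPM in WT. The keratin genes Krt8 and Krt18 were both at 237 CPM in AHRKO replicate 1, and the lower of them, Krt18, was at 767 CPM or more in every other library. AHRKO replicate 1 also had the highest summed level of markers of leukocytes, fibroblasts and endothelium. Of 4 acinar cell markers 1, Cela1, had enough counts to be tested, and the acinar enzyme gene Cpa1 was at 0.145 to 0.579 CPM. Because AHRKO replicate 1 stands apart, the counts by role, by chromosome 8 or 16, of the marker lists and of the further gene lists are given with and without it.

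Among the DNA replication genes, rises outnumbered falls in AHRKO tumours, and all but 1 of the rises were below 1 on the log2 scale. Of the 44 tested, 14 rose and 1, Orc3, fell at an adjusted p under 0.05 (edgeR's quasi-likelihood test, adjusted by Benjamini and Hochberg's method over all tested genes). Among all tested genes 15.9% rose and 13.6% fell. The median log2 fold change, AHRKO over WT, was 0.28 for the 44 genes and 0.02 for all tested genes, and 39 of the 44 were above zero. Without AHRKO replicate 1, 27 of the 44 rose and 1 fell, where 19.1% of all 15606 genes then tested rose and 17.8% fell, and the median was 0.38. With any one of WT replicates 4, 5 and 6 and AHRKO replicates 2, 3 and 4 left out, 9 rose and 1 fell. The 14 that rose were Cdc45, Mcm3, Mcm4, Mcm7, Gins1, Pold1, Pold3, Pcna, Rfc2, Rfc4, Rfc5, Rpa2, Cdt1 and Gmnn, and the largest rise was the 2.08-fold one of Cdc45. In bulk tumour RNA, a different number of cycling cells and a different amount of RNA per cycling cell cannot be told apart.

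**Figure D1:**
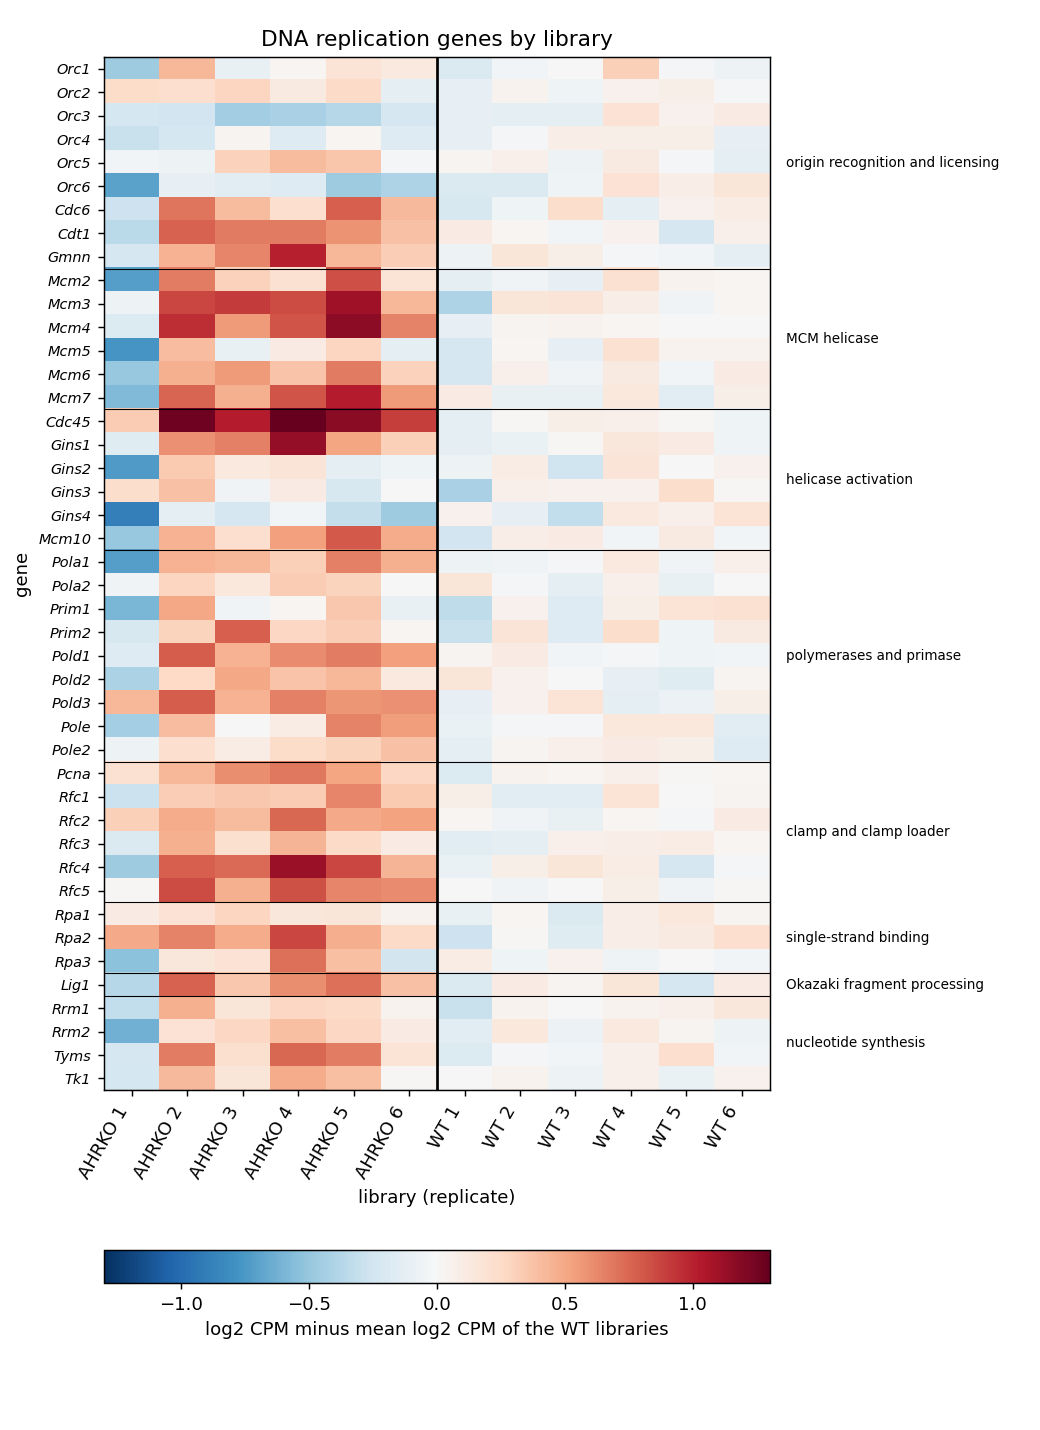
Heat map of 44 DNA replication genes (rows, grouped by role) in 6 AHRKO and 6 WT libraries (columns). Colour is the log2 CPM less the gene's mean over the WT libraries. AHRKO replicates 2 to 6 are mostly red, AHRKO replicate 1 is mostly blue, and WT libraries are pale.

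These genes varied less between the WT libraries than between the AHRKO libraries. Their median coefficient of variation was 20.8% over the 6 AHRKO libraries, 12.97% over AHRKO replicates 2 to 6 and 8.25% over WT. For all tested genes the medians were 24.2%, 18.8% and 14.0%. In 5 of the 44, Cdc45, Pold3, Pcna, Rfc2 and Rpa2, every AHRKO library lay above every WT library, which held for 6.03% of all tested genes. In Orc3 every AHRKO library lay below every WT library, as in 7.35% of all tested genes. With AHRKO replicate 1 left aside, 20 of the 44 lay wholly above WT, against 9.58% of all tested genes, and 1, Orc3, wholly below, against 9.86%.

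The promoters of 5 of these genes are printed because the letters that E2F factors recognise are a known feature of the group. They were chosen after the values were seen: Cdc45 had the largest rise, Pold3 was higher in every AHRKO library than in WT, Mcm6 and Mcm5 are helicase subunits that did not pass the test in all 12 libraries, and Orc3 fell. Each runs from 250 bases before the RefSeq transcription start to 30 bases after it, in build GRCm38.p6, and is read along the gene's own strand. Cdc45 is at chr16:18811943-18812222 on the minus strand, Pold3 at chr7:100121473-100121752 minus, Mcm6 at chr1:128359676-128359955 minus, Mcm5 at chr8:75109259-75109538 plus and Orc3 at chr4:34614913-34615192 minus. Capitals mark the E2F-type words TTTCCCGC, TTTGGCGC, TTTCGCGC and TTTGCCGC on either strand, and where words on opposite strands overlap the capitals run on as one.
Cdc45: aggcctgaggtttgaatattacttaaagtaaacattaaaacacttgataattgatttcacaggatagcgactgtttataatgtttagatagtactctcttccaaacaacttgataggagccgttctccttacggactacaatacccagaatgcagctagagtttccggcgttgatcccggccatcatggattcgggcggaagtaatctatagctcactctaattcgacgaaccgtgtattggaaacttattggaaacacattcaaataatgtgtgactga
Pold3: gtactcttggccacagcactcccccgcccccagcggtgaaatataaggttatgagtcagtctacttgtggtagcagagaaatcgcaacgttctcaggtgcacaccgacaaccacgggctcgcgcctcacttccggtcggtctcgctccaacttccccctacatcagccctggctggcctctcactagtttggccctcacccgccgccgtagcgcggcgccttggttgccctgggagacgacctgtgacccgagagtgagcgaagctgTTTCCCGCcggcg
Mcm6: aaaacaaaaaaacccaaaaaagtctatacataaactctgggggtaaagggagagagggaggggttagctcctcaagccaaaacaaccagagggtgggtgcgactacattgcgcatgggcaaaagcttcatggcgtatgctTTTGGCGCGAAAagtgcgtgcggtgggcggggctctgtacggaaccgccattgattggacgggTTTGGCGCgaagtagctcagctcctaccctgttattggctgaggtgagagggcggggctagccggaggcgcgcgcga
Mcm5: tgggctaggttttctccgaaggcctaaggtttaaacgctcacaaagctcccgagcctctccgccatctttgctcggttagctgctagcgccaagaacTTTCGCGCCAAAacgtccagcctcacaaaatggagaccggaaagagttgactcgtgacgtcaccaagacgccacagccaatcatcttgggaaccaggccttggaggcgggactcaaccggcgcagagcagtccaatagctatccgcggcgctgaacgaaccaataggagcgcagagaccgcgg
Orc3: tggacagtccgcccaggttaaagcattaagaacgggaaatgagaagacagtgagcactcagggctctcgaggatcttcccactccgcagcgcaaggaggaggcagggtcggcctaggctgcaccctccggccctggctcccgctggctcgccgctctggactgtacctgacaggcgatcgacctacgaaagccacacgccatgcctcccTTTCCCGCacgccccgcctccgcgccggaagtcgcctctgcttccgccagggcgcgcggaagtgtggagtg
Pold3 holds TTTCCCGC from base 18 to 25 after the start, and Orc3 holds it from -41 to -34. Mcm6 holds TTTGGCGC at -110 and again at -47, and TTTCGCGC on the opposite strand at -106. Mcm5 holds TTTCGCGC at -153 and TTTGGCGC on the opposite strand at -149. No such word stands in the Cdc45 window. All the other windows printed hold one, a larger share than in the whole list, whose counts follow.

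A promoter of this length was in the RefSeq table for 37 of the 45 genes. One of the 4 E2F-type words, on either strand, stood in 12 of the 37 (32.4%): Cdc6, Gins3, Mcm3, Mcm5, Mcm6, Mcm7, Orc1, Orc3, Pola1, Pold3, Pole2 and Rfc3. They stood in 4.04% of 11397 tested genes with a promoter in the table and in 2.45% of all 27018 promoters. Among the 10 genes that rose and have a promoter there, 3 held a word, and among the 25 tested genes that were not called, 8 did. These are 30.0% and 32.0%. GCGTG, the core of the sequence that the aryl hydrocarbon receptor binds with its partner, stood on either strand in 19 of the 37 (51.4%) and in 51.4% of the tested genes. CCAAT stood in 23 of the 37 (62.2%) and in 41.3% of the tested genes. These are matches of letters in a window of 280 bases and do not show binding.

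Among the 9 origin recognition and licensing genes, the 2 that rose set the timing of licensing and the 1 that fell is a subunit of the origin recognition complex. Without AHRKO replicate 1, 3 rose and 1 fell. Cdt1 (ENSMUSG00000006585, mm10 chromosome 8, 122568015 to 122573554, plus strand), which brings the MCM rings to origins, was at 46.2, 91.0 and 99.9 CPM in AHRKO (lowest, median and highest), against 50.6, 60.4 and 63.5 in WT. AHRKO replicate 1 was below all WT libraries, and the other 5 AHRKO libraries were above all of them. Its log2 fold change was 0.50 ± 0.15 (SE, adjusted p = 0.0298, edgeR's quasi-likelihood test), and 0.62 ± 0.08 without AHRKO replicate 1. Gmnn (ENSMUSG00000006715, chromosome 13, 24751845 to 24761923, minus strand) encodes geminin, the inhibitor of Cdt1, and was at 12.1, 19.2 and 28.4 CPM in AHRKO, against 13.04, 13.9 and 15.7 in WT. As with Cdt1, AHRKO replicate 1 was below WT and the other 5 AHRKO libraries above it, for a log2 fold change of 0.48 ± 0.17 (SE, adjusted p = 0.0443, edgeR's quasi-likelihood test). Orc3 (ENSMUSG00000040044, chromosome 4, 34570796 to 34614944, minus strand) was at 34.3, 38.0 and 40.3 CPM in AHRKO, against 43.2, 46.2 and 53.6 in WT. All 6 AHRKO libraries, replicate 1 included, lay below all 6 WT libraries, and Orc3 fell by 0.33 ± 0.08 on the log2 scale (SE, adjusted p = 0.0114, edgeR's quasi-likelihood test).

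The other 6 licensing genes did not pass. Cdc6, the ATPase that works with the origin recognition complex, had a log2 fold change of 0.41 (adjusted p = 0.0752), and without AHRKO replicate 1 of 0.51 (adjusted p = 0.00750, edgeR's quasi-likelihood test). The remaining origin recognition subunits had log2 fold changes of 0.05 for Orc1, 0.17 for Orc2, -0.13 for Orc4, 0.17 for Orc5 and -0.32 for Orc6 (adjusted p = 0.0594). Orc6 was below all WT libraries in 3 of 6 AHRKO libraries, and Orc4 in 4 of 6. Per kilobase of transcript, Cdt1 had the highest level of the 9, at 38.0 CPM per kb in AHRKO and 26.9 in WT, and Orc1 was lowest in AHRKO at 2.21. The call of Cdt1 ended when WT replicate 4, 5 or 6 or AHRKO replicate 2, 3 or 4 was left out, and that of Gmnn when any single library other than AHRKO replicate 1 was left out. Over all alternative fits the adjusted p ran up to 0.104 for Cdt1, 0.101 for Gmnn and 0.0586 for Orc3, with log2 fold changes of 0.44 to 0.62, 0.35 to 0.59 and -0.36 to -0.29.

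The MCM helicase, a ring of 6 subunits that unwinds the template, had 3 genes that rose, Mcm3, Mcm4 and Mcm7, and 5 without AHRKO replicate 1. Mcm3 (ENSMUSG00000041859, chromosome 1, 20802968 to 20820312, minus strand) was at 78.7, 149 and 176.5 CPM in AHRKO, against 62.4, 85.6 and 92.3 in WT. Replicate 1 fell within the WT range, and the other 5 AHRKO libraries, at 111 CPM or more, were above it. Its log2 fold change was 0.72 ± 0.17 (SE, adjusted p = 0.00923, edgeR's quasi-likelihood test). Mcm4 (ENSMUSG00000022673, chromosome 16, 15623897 to 15637400, minus strand) was at 68.4, 129 and 174 CPM in AHRKO and 72.1, 78.4 and 80.1 in WT, so that replicate 1 was below WT and the other 5 above. Its log2 fold change was 0.71 ± 0.17 (SE, adjusted p = 0.00868, edgeR's quasi-likelihood test). Mcm7 (ENSMUSG00000029730, chromosome 5, 138164583 to 138172422, minus strand) was at 79.6, 187 and 240.5 CPM in AHRKO and 108, 118 and 131 in WT, with the same split. Its log2 fold change of 0.58 ± 0.20 (SE, adjusted p = 0.0457, edgeR's quasi-likelihood test) was 0.73 ± 0.10 without replicate 1.

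Mcm6 had the highest level per kilobase of the 6, at 63.4 CPM per kb in AHRKO and 49.7 in WT. By library it was at 103, 192 and 231 CPM in AHRKO, against 124, 146 and 157 in WT, again with AHRKO replicate 1 below WT and the other 5 above. Its log2 fold change was 0.35 (adjusted p = 0.110), and without AHRKO replicate 1 it was 0.47 (adjusted p = 0.00148, edgeR's quasi-likelihood test). Mcm2 had 0.32 (adjusted p = 0.249) in all libraries and 0.46 (adjusted p = 0.0116) without that library. Mcm5, on chromosome 8, had a log2 fold change of 0.00 ± 0.16 (SE). It was at 51.1, 87.0 and 114 CPM in AHRKO and 74.6, 88.8 and 99.4 in WT. In 2 of 6 AHRKO libraries Mcm5 was above all WT libraries. The subunits assemble in equal numbers, while their transcripts per kilobase ran from 25.8 CPM per kb for Mcm5 to 63.4 for Mcm6 in AHRKO and from 21.6 for Mcm4 to 49.7 for Mcm6 in WT. The call of Mcm7 ended when any single library other than AHRKO replicate 1 was left out, with an adjusted p of up to 0.145 over all alternative fits. Those of Mcm3 and Mcm4 held in each alternative fit, with adjusted p of at most 0.0231 and 0.0333.

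Of the 6 helicase activators 2 rose, and 3 without AHRKO replicate 1. Cdc45 (ENSMUSG00000000028, chromosome 16, 18780447 to 18811987, minus strand), the subunit whose joining turns the MCM ring into a working helicase, was at 21.3, 36.3 and 45.9 CPM in AHRKO, against 15.6, 17.2 and 17.9 in WT. All 6 AHRKO libraries were above all WT libraries, replicate 1 by the smallest margin. The log2 fold change was 1.06 ± 0.15 (SE, adjusted p = 0.000697, edgeR's quasi-likelihood test), and 1.17 ± 0.10 without replicate 1. Of the 4 GINS subunits, Gins1 (ENSMUSG00000027454, chromosome 2, 150905400 to 150931280, plus strand) rose, at 8.90, 14.6 and 21.9 CPM in AHRKO and 9.08, 9.82 and 11 in WT. AHRKO replicate 1 was below WT and the other 5 above, with a log2 fold change of 0.56 ± 0.18 (SE, adjusted p = 0.0333, edgeR's quasi-likelihood test).

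The other 3 GINS genes lie on chromosome 8. Gins4, the activator with the highest level per kilobase (24.6 CPM per kb in AHRKO and 30.9 in WT), was at 22.4, 34.4 and 40.2 CPM in AHRKO, against 33.2, 43.1 and 46.7 in WT. In 2 of 6 AHRKO libraries it was below all WT libraries, and its log2 fold change was -0.32 (adjusted p = 0.0908, edgeR's quasi-likelihood test). Gins2 had a log2 fold change of -0.01 and Gins3 of 0.08. Of the exonic bases of Gins2, 67.3% also lie in Gse1 on the opposite strand. The strand setting of the counting is not given, and what the overlap did to the counts of Gins2 was not tested. GINS works as a complex with 1 copy of each subunit, and the 4 log2 fold changes ran from -0.32 to 0.56. Mcm10, which helps to activate the helicase, had 0.38 (adjusted p = 0.116), and 0.50 (adjusted p = 0.00399) without AHRKO replicate 1. The call of Gins1 ended when WT replicate 1, 2, 4, 5 or 6 was left out, and likewise AHRKO replicate 2, 3 or 4, with log2 fold changes of 0.41 to 0.67 and an adjusted p of up to 0.0673 over all alternative fits, and that of Cdc45 held in each of them.

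**Figure D2:**
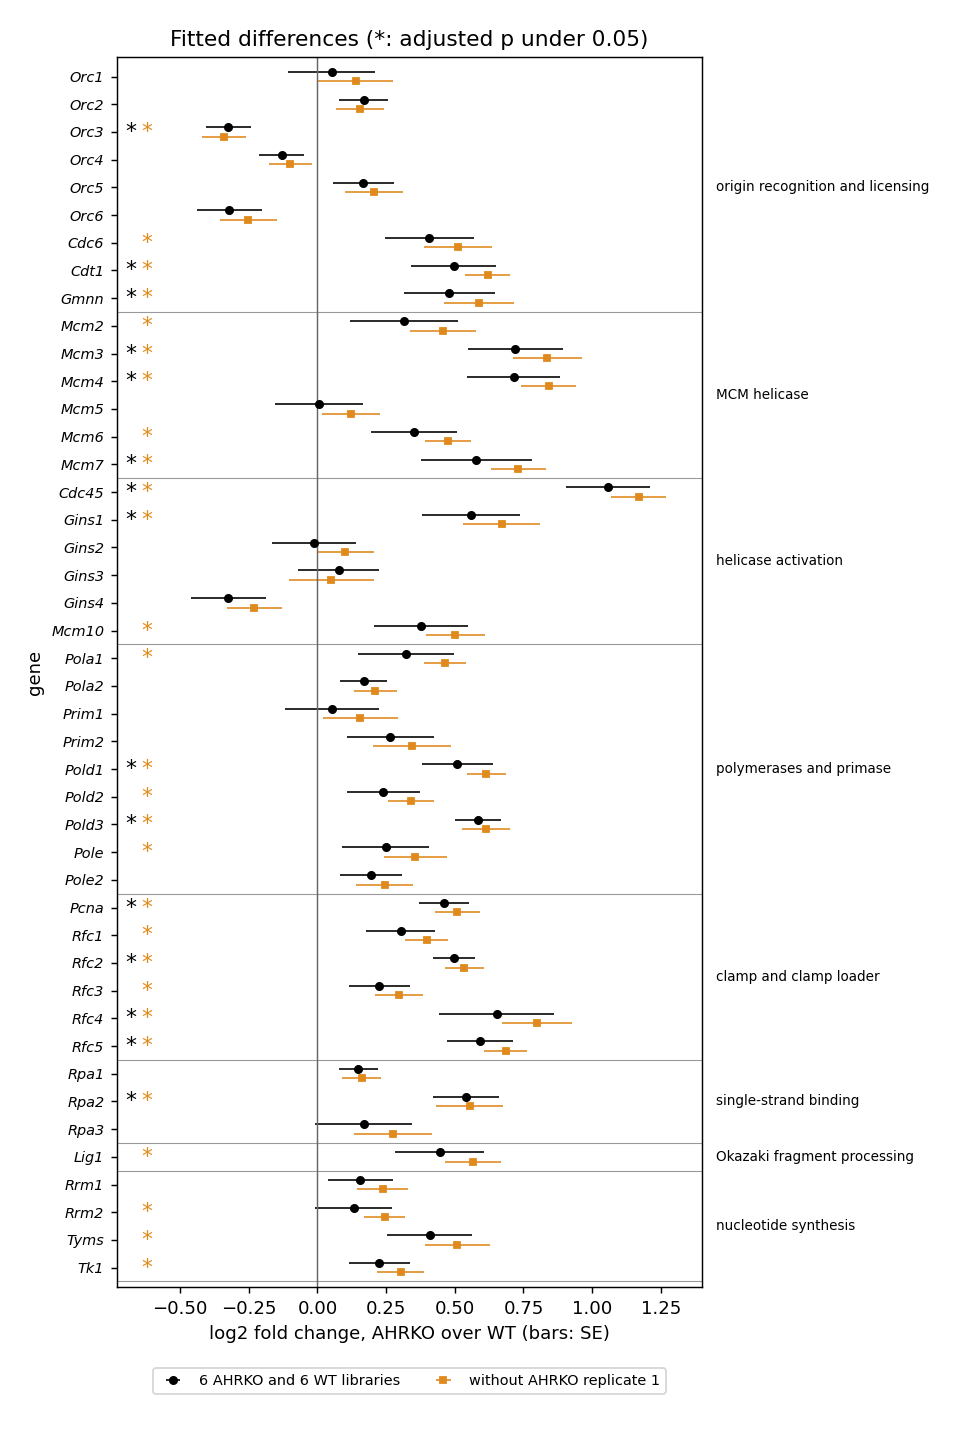
Log2 fold change, AHRKO over WT, with its SE for 44 genes grouped by role, in all 12 libraries (black) and without AHRKO replicate 1 (orange). Asterisks at the left mark an adjusted p under 0.05: 14 rises and 1 fall in black, and 27 rises and 1 fall in orange.

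All 9 tested polymerase and primase genes had log2 fold changes above zero, and 2 rose, both subunits of polymerase delta, which copies the lagging strand. Without AHRKO replicate 1, 5 rose. Pold3 (ENSMUSG00000030726, chromosome 7, 100082111 to 100121565, minus strand), an accessory subunit of it, was at 45.4, 50.4 and 58.0 CPM in AHRKO, against 30.9, 33.4 and 38.0 in WT. The groups did not overlap, and AHRKO replicate 1 differed little from the next AHRKO library, at 45.9 CPM. The log2 fold change was 0.58 ± 0.08 (SE, adjusted p = 0.000695, edgeR's quasi-likelihood test). Pold1 (ENSMUSG00000038644, chromosome 7, 44532746 to 44548849, minus strand), the catalytic subunit, was at 56.5, 94.6 and 109.6 CPM in AHRKO, against 61.1, 62.5 and 68.4 in WT. AHRKO replicate 1 was below WT and the other 5 above, with a log2 fold change of 0.51 ± 0.13 (SE, adjusted p = 0.0114, edgeR's quasi-likelihood test).

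Pold2, the third delta subunit and the gene of this role with the highest level per kilobase, was at 30.6, 50.8 and 57.8 CPM in AHRKO, against 36.6, 41.4 and 45.4 in WT. In 4 of 6 AHRKO libraries it was above all WT libraries. Its log2 fold change was 0.24 (adjusted p = 0.193, edgeR's quasi-likelihood test), and without AHRKO replicate 1 it was 0.34 (adjusted p = 0.00835). Pola1, the catalytic subunit of polymerase alpha, had 0.32 (adjusted p = 0.184) and 0.46 (adjusted p = 0.000876) without that library. Pole, the catalytic subunit of polymerase epsilon, which copies the leading strand, had 0.25 (adjusted p = 0.254) and 0.36 (adjusted p = 0.0304) without it. Pola2, Pole2 and the primase genes Prim1 and Prim2 did not pass in either set, with log2 fold changes of 0.05 for Prim1 to 0.27 for Prim2 in all libraries. The calls of Pold1 and Pold3 held in each alternative fit, with adjusted p of at most 0.0482 and 0.0134.

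Of the clamp and loader genes 4 of 6 rose in all libraries, the largest share of any role. Without AHRKO replicate 1, 6 of 6 rose. Among all tested genes 15.9% rose, and 19.1% without that library. Rfc1, Rfc2, Rfc3 and Rfc5 lie on chromosome 5 and Rfc4 on chromosome 16. The median log2 fold changes of all tested genes there were 0.15 and 0.33. What part the chromosomes have in the share of this role was not tested. Pcna (ENSMUSG00000027342, chromosome 2, 132249162 to 132253314, minus strand), the ring that tethers polymerases to DNA, was at 109, 132 and 153 CPM in AHRKO, against 83.9, 96.8 and 99.4 in WT. The groups did not overlap, and the log2 fold change was 0.46 ± 0.09 (SE, adjusted p = 0.00343, edgeR's quasi-likelihood test). Per kilobase Pcna had the highest level of the 45 genes, at 86.3 CPM per kb in AHRKO and 62.7 in WT. Rfc2 (ENSMUSG00000023104, chromosome 5, 134581366 to 134601805, plus strand), a small loader subunit, was at 57.1, 64.4 and 77.1 CPM in AHRKO and 43.1, 46.1 and 49.6 in WT. Here too the groups did not overlap, with a log2 fold change of 0.50 ± 0.08 (SE, adjusted p = 0.000995, edgeR's quasi-likelihood test).

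Rfc5 (ENSMUSG00000029363, chromosome 5, 117378103 to 117389047, minus strand) was at 38.1, 58.3 and 68.3 CPM in AHRKO, against 36.5, 37.8 and 40.0 in WT. AHRKO replicate 1 lay within the WT range and the other 5 above it, with a log2 fold change of 0.59 ± 0.12 (SE, adjusted p = 0.00433, edgeR's quasi-likelihood test). Rfc4 (ENSMUSG00000022881, chromosome 16, 23113943 to 23127737, minus strand) was at 7.54, 17.5 and 22.5 CPM in AHRKO, against 8.88, 10.6 and 11.6 in WT. AHRKO replicate 1 had less than any WT library and the other 5 had more, for a log2 fold change of 0.65 ± 0.21 (SE, adjusted p = 0.0338, edgeR's quasi-likelihood test). Rfc1, the large subunit, had 0.30 (adjusted p = 0.0837) and Rfc3 0.22 (adjusted p = 0.142), and without AHRKO replicate 1 they had 0.40 (adjusted p = 0.00246) and 0.30 (adjusted p = 0.0202). Between 10.7% and 15.1% of the exonic bases of Rfc2, Rfc4 and Rfc5 are shared with a gene on the opposite strand. The call of Rfc4 ended when WT replicate 1, 2, 4, 5 or 6 was left out, and likewise AHRKO replicate 2, 3, 4 or 5, with log2 fold changes of 0.54 to 0.80 and an adjusted p of up to 0.0909 over all alternative fits. The calls of Pcna, Rfc2 and Rfc5 held in each.

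**Figure D3:**
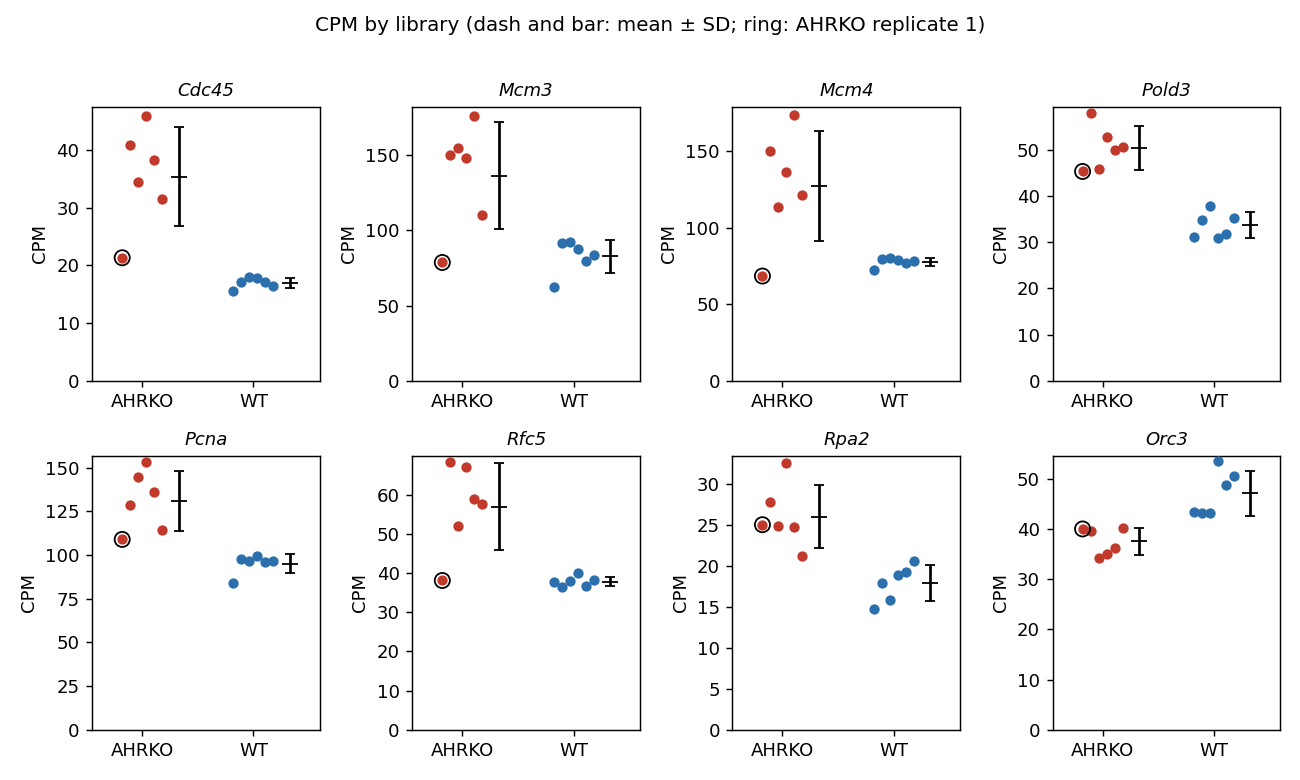
CPM of 8 genes in each AHRKO library (red) and WT library (blue), with the mean and SD of each group beside the points and AHRKO replicate 1 ringed. Cdc45, Pold3, Pcna and Rpa2 do not overlap between the groups and lie higher in AHRKO, Orc3 lies lower, and in Mcm3, Mcm4 and Rfc5 the ringed library sits with or below WT.

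Replication protein A is a complex of 3 subunits that coats single-stranded DNA, and 1 of them rose with or without AHRKO replicate 1. Rpa2 (ENSMUSG00000028884, chromosome 4, 132768332 to 132778752, plus strand) was at 21.2, 25.0 and 32.5 CPM in AHRKO, against 14.8, 18.4 and 20.6 in WT. The groups did not overlap, the lowest AHRKO library was replicate 6 and not replicate 1, and the log2 fold change was 0.54 ± 0.12 (SE, adjusted p = 0.00625, edgeR's quasi-likelihood test). The large subunit Rpa1 had a log2 fold change of 0.15 (adjusted p = 0.132), and Rpa3, the highest of the 3 per kilobase at 25.0 CPM per kb in AHRKO and 22.3 in WT, had 0.17 (adjusted p = 0.502). By library Rpa3 was at 10.3, 16.8 and 24.6 CPM in AHRKO and 14.3, 14.7 and 15.9 in WT. In 4 of 6 AHRKO libraries Rpa3 was above all WT libraries, and in 2 it was below all of them.

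Of the enzymes that finish Okazaki fragments, Lig1, the ligase that seals them, was at 49.1, 89.4 and 108 CPM in AHRKO, against 54.4, 66.6 and 70.6 in WT. AHRKO replicate 1 was below WT and the other 5 above, and the log2 fold change was 0.45 ± 0.16 (SE, adjusted p = 0.0546), or 0.57 ± 0.10 without AHRKO replicate 1 (adjusted p = 0.00161, edgeR's quasi-likelihood test). Fen1, the flap nuclease that trims the fragments, had 1 to 10 counts in AHRKO libraries and 1 to 14 in WT libraries, and did not pass the filter on low counts. It shares 84.2% of its exonic bases with Gm10143 and Tmem258 on the opposite strand, and the strand setting of the counting is not given in the sources used here. Whether reads of Fen1 were dropped as ambiguous was not tested, and its counts are not read as its expression.

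Of the 4 genes of deoxynucleotide synthesis, 0 passed edgeR's quasi-likelihood test in all libraries and 1, Tyms, had an unadjusted p under 0.05, while 1 rose with DESeq2 and 2 with limma-voom. Without AHRKO replicate 1, 3 rose. Tyms, which makes thymidylate, was at 24.5, 39.0 and 47.9 CPM in AHRKO, against 25.2, 27.9 and 33.1 in WT. In 3 of 6 AHRKO libraries Tyms was above all WT libraries, and its log2 fold change was 0.41 (adjusted p = 0.0623), or 0.51 without AHRKO replicate 1 (adjusted p = 0.00627, edgeR's quasi-likelihood test). Tk1, the thymidine kinase of the salvage route, was at 52.6, 74.5 and 85.8 CPM in AHRKO and 58.1, 62.4 and 64.3 in WT, with a log2 fold change of 0.23 (adjusted p = 0.145) and of 0.30 without that library (adjusted p = 0.0163). Rrm2, the small subunit of ribonucleotide reductase, was at 63.7, 115 and 128 CPM in AHRKO and 88.7, 96.9 and 108 in WT, with 0.13 (adjusted p = 0.507) and 0.25 without that library (adjusted p = 0.0222). Rrm1, the large subunit, did not pass in either set, at 0.16 (adjusted p = 0.340) and 0.24 (adjusted p = 0.0617). Per kilobase these genes were at 12.01 CPM per kb for Tyms to 50.04 for Tk1 in AHRKO, and at 9.05 for Tyms to 44.9 for Rrm2 in WT.

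AHRKO replicate 1 stood apart in these genes. It was the lowest AHRKO library in 38 of 44 (86.4%), where it was the lowest in 31.6% of all tested genes, and it was below every WT library in 30 of 44 (68.2%), against 37.2% of all tested genes. The median log2 CPM of the 44 genes, less the mean of the WT libraries, was -0.25 in AHRKO replicate 1 and 0.45, 0.30, 0.38, 0.45 and 0.21 in AHRKO replicates 2 to 6, against -0.11 to 0.09 in the WT libraries. The same library had the highest summed markers of leukocytes, at 2898 CPM, while AHRKO replicates 2 to 6 had 483 to 1035 CPM and WT libraries 290.4 to 513 CPM. Its fibroblast markers summed to 38830 CPM, those of AHRKO replicates 2 to 6 to 6172 to 15410 CPM and those of WT to 11150 to 26300 CPM. Its endothelial markers summed to 1152 CPM, those of AHRKO replicates 2 to 6 to 226 to 358 CPM and those of WT to 197 to 463 CPM. All 8 leukocyte markers rose in AHRKO, such as Lcp1 at a log2 fold change of 1.43 and Laptm5 at 1.55, as did all 4 of T cells, 5 of macrophages and the 4 tested of B and plasma cells. These counts without AHRKO replicate 1 were the same except for macrophages, with 4 of 5. Of the 6 fibroblast markers none passed the test in all libraries, and 3 fell without AHRKO replicate 1, as did 1 of the 7 ductal and tumour markers. No marker of the 4 lists was at 0 in every library. The part that these cells, or the lower share of ductal and tumour markers, have in the levels of the replication genes was not tested. Without AHRKO replicate 1 the summed leukocyte markers still lay higher in 4 of the other 5 AHRKO libraries than in any WT library. The summed ductal and tumour markers of the groups overlapped, although 1 of the 7 fell, as given above.

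**Figure D4:**
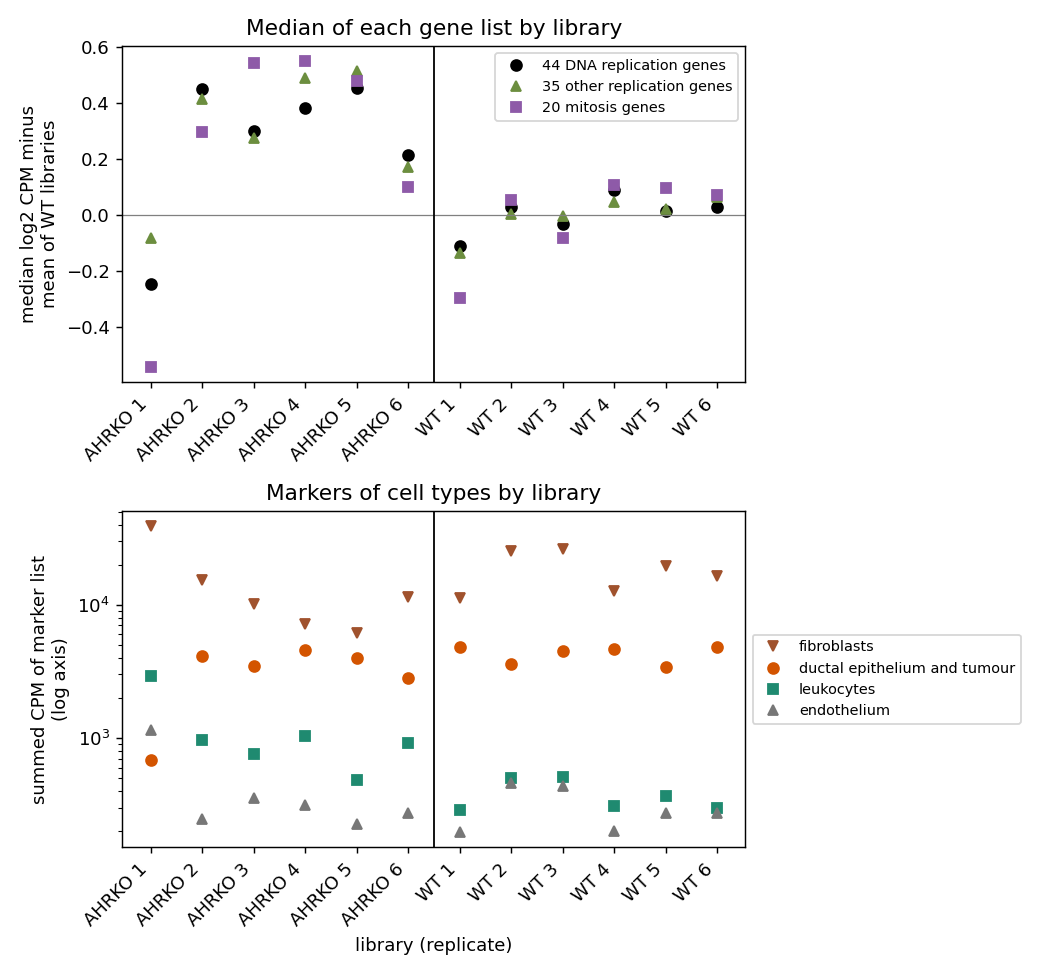
Upper panel: median log2 CPM less the WT mean, by library, for 44 DNA replication genes, 35 other replication genes and 20 mitosis genes. Lower panel: summed CPM of 4 marker lists by library, on a log axis. AHRKO replicate 1 is the lowest of the 12 libraries in the upper panel for the DNA replication genes and the mitosis genes, and in the lower panel it has the lowest ductal and tumour sum (681 CPM) and the highest leukocyte, fibroblast and endothelial sums.

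Apart from AHRKO replicate 1, the roles peaked in different AHRKO libraries. The MCM helicase genes had their highest median in AHRKO replicate 5, at 0.93 above the WT mean on the log2 scale, and the clamp and loader and the replication protein A genes in AHRKO replicate 4, at 0.72 in both. Across single genes the library of the peak ran with transcript length, and the roles were not compared by length. Of the 22 replication genes with shorter transcripts, 12 were highest among AHRKO libraries in replicate 4 and 1 in replicate 5, and of the 22 with longer transcripts 2 were highest in replicate 4 and 9 in replicate 5. Among all tested genes shorter than the replication genes' median of 2677.5 bases, 31.7% were highest in AHRKO replicate 4 and 13.1% in replicate 5, and among longer ones 7.82% and 28.0%. Whether length has a part in the order of the AHRKO libraries was not tested further.

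The median fold change differed between chromosomes, and the replication genes were set against their own chromosome. Positions along a chromosome were not compared. Taken over all tested genes, the median log2 fold change was -0.31 on chromosome 8 (826 genes), 0.33 on chromosome 16 (475 genes), -0.24 on chromosome 12 (524 genes), 0.21 on chromosome 7 (1164 genes) and 0.15 on chromosome 5 (962 genes). Of the 2 members on chromosome 12, Rrm2 and Pole2, neither passed the test in all libraries, and Rrm2 rose without AHRKO replicate 1. Among all 524 tested genes there 40 rose and 173 fell, and 44 and 212 without that library. On chromosome 5, 3 of the 8 members rose, where 247 of all 962 tested genes did. Without AHRKO replicate 1 these were 7 and 313. On chromosome 7, 2 of the 4 members rose, where 294 of all 1164 tested genes did. Without that library these were 3 and 336. The 6 members on chromosome 8, Mcm5, Cdt1, Orc6, Gins2, Gins3 and Gins4, had a median of -0.003, and 1 of them, Cdt1, rose. Of all 826 tested genes there 54 rose and 330 fell, and 55 and 386 without AHRKO replicate 1. The 38 members on other chromosomes had a median of 0.32, and 13 rose. The medians without AHRKO replicate 1 were 0.08 for the 6, of which 1 rose, and 0.46 for the 38, of which 26 rose. All 3 on chromosome 16, Cdc45, Mcm4 and Rfc4, rose, where 180 of all 475 tested genes of that chromosome did, and without AHRKO replicate 1 all 3 and 214 of the 475 rose. Less the median of their chromosome, the log2 fold changes were 0.73 for Cdc45, 0.38 for Mcm4 and 0.32 for Rfc4, and on chromosome 8 they were 0.80 for Cdt1 and 0.31 for Mcm5. Over the 44 genes the median less the chromosome's own was 0.30, against 0.28 as fitted. Orc3 lies on chromosome 4, where the median was 0.01.

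**Figure D5:**
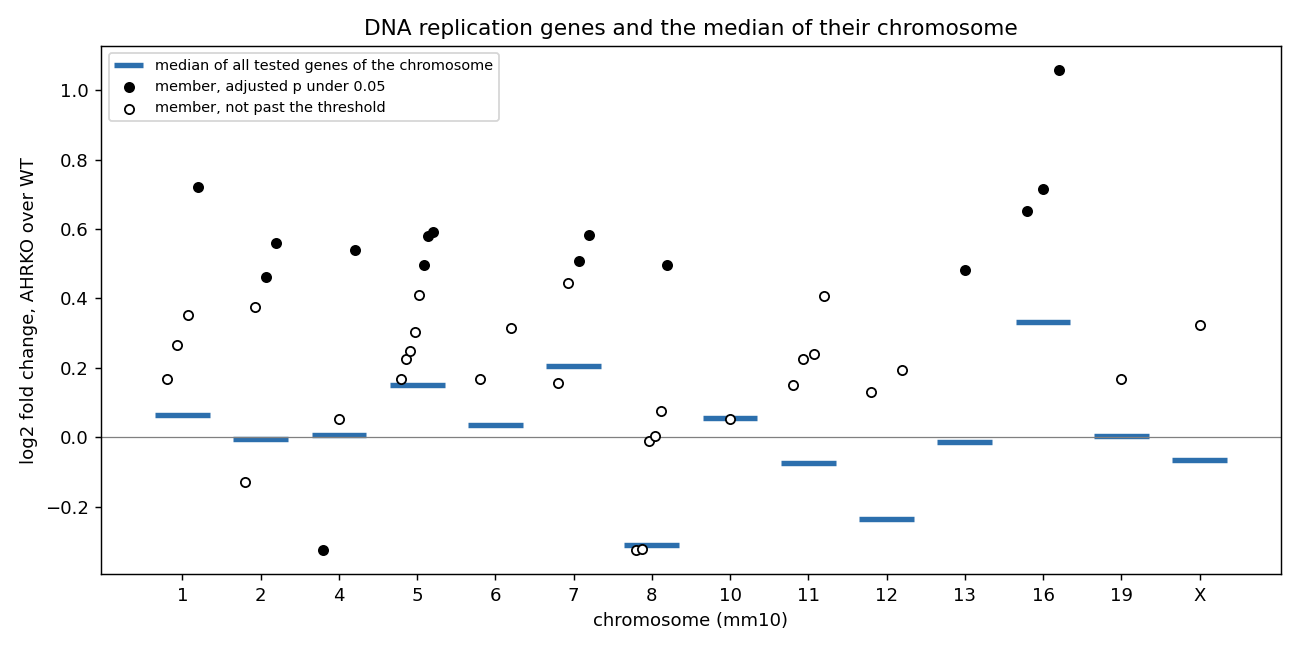
Log2 fold change, AHRKO over WT, of 44 DNA replication genes by chromosome (filled: adjusted p under 0.05, open: not past the threshold), with the median of all tested genes of that chromosome as a bar. On chromosome 8, where the bar is at -0.31, 4 of the 6 genes lie above it, and on chromosome 16, where it is at 0.33, all 3 do.

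A further 35 genes of replication were followed beside these, and 14 rose and 3 fell, with a median log2 fold change of 0.36. Among all tested genes 15.9% rose and 13.6% fell. The counts without AHRKO replicate 1 were 21 and 3, where 19.1% of all tested genes rose and 17.8% fell. Pole4, a small subunit of polymerase epsilon, was at 52.3, 66.0 and 67.2 CPM in AHRKO and 38.8, 40.9 and 43.8 in WT (log2 fold change 0.60, adjusted p = 0.000613, edgeR's quasi-likelihood test), with no overlap. Donson, a replisome assembly factor, had a log2 fold change of 0.54 (adjusted p = 0.00195), and Cdc7, the kinase that fires origins, 0.57 (adjusted p = 0.00291). The 3 that fell were Rrm2b, the p53-induced ribonucleotide reductase subunit, at -0.56 (adjusted p = 0.00274), and Chtf8 and Rnaseh2a, at -0.46 and -0.45 and both on chromosome 8. Samhd1, which breaks down deoxynucleotides and is abundant in myeloid cells, had the largest rise, at 1.57 (adjusted p = 0.00423). It was at 588 CPM in AHRKO replicate 1, against 121 at the lowest in AHRKO and 72.1 to 133 in WT. Samhd1 was thus highest in the library in which most of the 44 genes were lowest.

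Of 26 genes of E2F and G1/S control, 9 rose and 2 fell, with a median log2 fold change of -0.005. Among all tested genes 15.9% rose and 13.6% fell. In this list 9 rose and 3 fell without AHRKO replicate 1, against 19.1% and 17.8% of all tested genes. The count that rose was 3 with WT replicate 1 left out, 5 with WT replicate 4 or 5 left out and 4 with WT replicate 6 left out, and the count that fell was 1 in each of these and with AHRKO replicate 2, 3, 4 or 6 left out. E2f2, an activating E2F factor, was at 12.03, 16.4 and 20.3 CPM in AHRKO and 6.57, 7.46 and 8.48 in WT. The groups did not overlap, the highest library was AHRKO replicate 1, and the log2 fold change was 1.16 ± 0.14 (SE, adjusted p = 0.000234, edgeR's quasi-likelihood test). Ccne1, which encodes the cyclin of S phase entry, had 0.97 (adjusted p = 0.00396) and did not overlap either, at 10.0 CPM or more in AHRKO and 9.34 or less in WT. Uhrf1, which carries DNA methylation through replication, had 0.72 (adjusted p = 0.0195). Ccnd2, a D-type cyclin, was lower without overlap, at 183, 219 and 289.7 CPM in AHRKO and 323, 374 and 457 in WT (log2 fold change -0.74, adjusted p = 0.00173), and Tfdp2, a dimer partner of E2F, had -0.52 (adjusted p = 0.0416).

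Of 20 mitosis genes 3 rose, near the 15.9% of all tested genes, with a median log2 fold change of 0.26. Leaving out AHRKO replicate 1, 12 of the 20 rose, against 19.1% of all tested genes. With any other single library left out except WT replicate 2 and AHRKO replicate 6, 1 rose. Kif11, a spindle motor, had 0.73 (adjusted p = 0.0114), Cdk1, the mitotic kinase, 0.44 (adjusted p = 0.0384) and Aurkb, a kinase of chromosome segregation, 0.40 (adjusted p = 0.0407, edgeR's quasi-likelihood test). Plk1, another mitotic kinase, was just outside at 0.47 (adjusted p = 0.0514). All 20 were lowest among AHRKO libraries in replicate 1, and 18 were lowest there of all 12 libraries. Their median log2 CPM less the WT mean was -0.54 in AHRKO replicate 1 and 0.10 to 0.55 in AHRKO replicates 2 to 6, against -0.30 to 0.11 in WT. No difference between the replication genes and the mitosis genes was tested.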

How the data were processed

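The table that the authors deposited gives raw counts of reads for each gene in 12 libraries. The submitters' processing notes name HISAT2, SAMtools, HTSeq, DESeq2 and build mm10, without the annotation or strand setting. Per the labels' protocols, mRNA came from tumours of WT or knockout CR705 cells and was selected with poly-T beads. Other protocol texts speak of cultured cells given compounds, but no sample label names a compound, and all samples are treated here as untreated tumours. No pair of libraries of the same group was alike within sampling noise, and pairs across the groups were not compared.

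After filterByExpr and TMM scaling, AHRKO was set against WT with edgeR's quasi-likelihood test (two-sided), and p-values were adjusted by Benjamini and Hochberg's method over all tested genes, with a threshold of 0.05. The versions used were edgeR 4.0.16, limma 3.58.1 and DESeq2 1.42.0 under R 4.3.3. The SE is the log2 fold change over the root of its F value. CPM rest on the TMM-scaled totals, and log2 CPM on a prior count of 2. Depth covers counting error only. Positions come from GENCODE M21, and levels per kilobase use the longest principal coding transcript. The pipeline was tested on simulated data.

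The members and lists were chosen with earlier results of these data known. Values by library are given for members past the threshold and for the member with the smallest p and the one with the highest level per kilobase in each role. Of each other list the 4 genes with the smallest p, and any past the threshold, could be named, and of each marker list the 2 with the highest mean CPM. Mcm5 by library, Tk1 by library, Plk1 and the printed promoters were chosen after their values were seen. The alternatives were a Wald test in DESeq2, limma-voom with quality weights, RLE and upper-quartile scaling, no filter, a stricter filter (10 counts in at least 6 libraries, mean log2 CPM of 1 or more), a block for the replicate number, and each library left out in turn.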

Additional observations from a re-analysis of the deposited data

Results flagged for a closer look

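A library far from the other 5 of its group was looked for in 90 groups of 6 values by the gap to the nearest library as a share of the range (Dixon's test), and 6 groups had one. Chance gives about 1 in 20 such groups. The median log2 level of the 44 genes, less the WT mean, was -0.25 in AHRKO replicate 1. Pola1 was at 15.96 CPM and Rrm2 at 63.7 CPM in the same library, both lowest of its group. In WT replicate 1, Pcna was at 83.9 CPM and Mcm4 at 72.1 CPM, both lowest of WT. Orc1 was at 7.93 CPM in WT replicate 4, the highest of WT.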

How the results depend on the processing

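Of the 15 calls among the 44 genes, 9 were kept under all 7 other settings and all 12 fits with a library left out: Mcm3, Mcm4, Cdc45, Pold1, Pold3, Pcna, Rfc2, Rfc5 and Rpa2. Besides the left-out libraries named above, no filter and the replicate block each ended the calls of Cdt1, Gmnn, Mcm7, Gins1 and Rfc4. Upper-quartile scaling also ended those of Gmnn and Mcm7. Replication genes that rose numbered 26 with limma-voom and 9 with no filter, and those that fell 2 with DESeq2, 3 with limma-voom and 2 with the stricter filter. With a library left out, 9 to 27 rose and 1 fell. E2F and G1/S genes that rose and fell numbered 4 and 1 with no filter, and 3 to 9 and 1 to 3 with a library left out. Mitosis genes that rose numbered 5 with DESeq2, 9 with limma-voom, 1 with upper-quartile scaling or no filter, and 1 to 12 with a library left out. The signs of 4 genes near zero turned. The log2 fold change of Mcm5 was -0.012 with upper-quartile scaling, -0.0055 with no filter, -0.0056 with the stricter filter, and -0.086 to 0.12 with a library left out. The log2 fold change of Gins2 was 0.056 with limma-voom and -0.092 to 0.10 with a library left out. With a library left out, the log2 fold change of Orc1 was -0.036 to 0.14 and the log2 fold change of Prim1 was -0.054 to 0.16. The causes were not tested.

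Samples with the same replicate number did not deviate together (correlations of -0.47 to 0.029). Samples of different numbers were not compared, so this cannot show whether the number pairs samples. With a replicate block, 9 replication genes rose and 0 fell (edgeR's quasi-likelihood test; 2 were lower at an unadjusted p under 0.05), 4 E2F and G1/S genes rose and 1 fell, there were 1114 of all tested genes higher in AHRKO and 1240 of all tested genes lower in AHRKO, and the log2 fold change of Mcm5 was -0.034. Of the settings and left-out libraries tried, the block was the one that ended the call of Orc3 (adjusted p = 0.0586).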
